A study of Mus musculus with 6 samples.

Results

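The genes described here are the lung collectins Sftpa1 and Sftpd and the mannose receptors Mrc1 and Mrc2, 4 of the 909 genes that could be named in the table. They were chosen by name, with the size of their differences in these data already known. Each was found through the RefSeq accession in its probe set's own name, and each had 1 probe set, so the rule that takes the brightest probe set of a gene decided nothing for these 4. The cells were MLE-15, a mouse lung epithelial line that carries the SV40 large T antigen, driven in the mice of origin by the promoter of a human surfactant protein gene. PMA, the phorbol ester phorbol 12-myristate 13-acetate, switches on protein kinase C. It was given to the cells of 3 arrays, and 3 arrays came from control cells, with replicate numbers 1, 2 and 3 in each group. The design text of the series gives a dose of 10 nM for 24 h, where the sample labels name the treatment alone. Whether each replicate is a culture of its own is not stated, so the p-values describe the scatter among these arrays, which may be technical.

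Collectins are secreted proteins that join a collagen-like stalk to a C-type lectin domain, and they bind sugars on microbes in the fluid that lines the airways. Surfactant proteins A and D, encoded by Sftpa1 and Sftpd, are made mainly by alveolar type II cells and by club cells of the airway. The mannose receptors are large endocytic membrane proteins with a row of C-type lectin-like domains. Mrc1, the macrophage mannose receptor, takes up glycoproteins ending in mannose, fucose or N-acetylglucosamine and also binds sulfated N-acetylgalactosamine. Mrc2, also known as uPARAP, takes up collagen and is known from fibroblasts and other mesenchymal cells.

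The promoters of Mrc1 and Sftpa1 are shown because the reference used held a promoter sequence for these genes and none for Sftpd and Mrc2. PMA acts on many genes through the AP-1 factors, and both genes shown have a lineage factor known from their promoters. PU.1 is a factor of myeloid cells that is known to act on Mrc1, and NKX2-1 is a factor of lung epithelium that is known to act on surfactant protein genes. The sequences are those of RefSeq on mouse build GRCm38.p6, the 250 bases before the annotated start of each gene, read 5′ to 3′. The first lies at chr2:14229164-14229413 and the second at chr14:41131538-41131787, both on the plus strand. Capitals mark every match found to TGANTCA (AP-1), GAGGAA (PU.1) or CACTTNA (NKX2-1) on either strand, and to TATAAA (the TATA box) on the gene's own strand. No match overlapped another.
Mrc1: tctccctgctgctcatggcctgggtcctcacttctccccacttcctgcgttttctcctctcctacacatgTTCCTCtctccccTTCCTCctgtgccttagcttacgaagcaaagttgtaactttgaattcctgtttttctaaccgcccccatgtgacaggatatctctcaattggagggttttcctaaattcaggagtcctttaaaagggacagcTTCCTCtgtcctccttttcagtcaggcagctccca
Sftpa1: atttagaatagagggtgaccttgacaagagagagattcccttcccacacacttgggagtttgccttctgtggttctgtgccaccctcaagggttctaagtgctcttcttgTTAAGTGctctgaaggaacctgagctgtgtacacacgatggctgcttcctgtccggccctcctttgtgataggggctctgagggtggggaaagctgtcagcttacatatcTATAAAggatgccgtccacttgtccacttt
The Mrc1 window held 3 matches to the PU.1 letters, all on the opposite strand, beginning 180, 167 and 35 bases before the start. The Sftpa1 window held 1 match to the NKX2-1 letters, on the opposite strand, 140 bases before the start, and 1 TATA box 30 bases before it. Neither window held the AP-1 letters. Among the 32851 promoter windows of this length in the same table, 6.75% held the AP-1 letters, 23.3% those of PU.1, 10.1% those of NKX2-1 and 7.59% the TATA box. A match is a stretch of letters, and no binding was measured here.

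Values are RMA values on the log2 scale, on which 1 unit is a doubling of signal. Over all arrays the lower quartile of the 1246 probe sets lay between 4.32 and 4.43 and the median between 5.64 and 5.71. Probe sets differ in brightness for reasons of their design, so these marks say how dim a probe set was and do not rank transcripts. No probe set was called present or absent. Across the table the 2 number 1 arrays lay far from the 4 others, and the results are given with and without them. Only 2 of 13 listed markers of alveolar type II cells were measured, and they are Sftpa1 and Sftpd themselves. Of 8 general epithelial markers only Muc1 was measured, at 5.41 to 5.68 on PMA arrays and 5.34 to 5.84 on control arrays. The labelled cell type could therefore not be checked further.

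Sftpa1, which encodes surfactant protein A, was dim and showed no difference with PMA that passed the test. Its values were 3.82, 3.30 and 3.36 on PMA arrays 1, 2 and 3, against 3.89, 3.39 and 3.29 on control arrays 1, 2 and 3. All 6 values lay below the lower quartile of their own array, the 2 groups overlapped, and the highest value of each group was that of number 1. The means were 3.49 ± 0.28 with PMA and 3.53 ± 0.32 in control (SD, n = 3 arrays each). The difference was -0.03 log2 units (SE 0.22, 95% interval -0.58 to 0.51), with an adjusted p = 0.999 by limma with Benjamini-Hochberg adjustment. Within numbers 1, 2 and 3 PMA minus control was -0.076, -0.092 and 0.072, so 1 of 3 pairs was higher with PMA.

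Sftpd, which encodes surfactant protein D, varied least among the 4 genes, with a range of 0.22 over the 6 arrays. Its values were 5.48, 5.38 and 5.29 on PMA arrays 1, 2 and 3, against 5.50, 5.48 and 5.28 on control arrays 1, 2 and 3. All 6 lay above the lower quartile and below the median of their array, and the groups overlapped. The means were 5.38 ± 0.093 with PMA and 5.42 ± 0.12 in control (SD, n = 3 arrays each). The difference was -0.04 (SE 0.090, 95% interval -0.27 to 0.18), with an adjusted p = 0.999 by limma. The pairs gave -0.025, -0.11 and 0.0051. The interval lies within 1 log2 unit of 0 for Sftpa1 and Sftpd alike, so a doubling of either signal is outside it, as far as signal near background can show one.

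Mrc1 had the largest difference with PMA among the 4 genes, and it did not pass the test. Mrc1 was higher in all 3 pairs, and the share of all probe sets with every pair on the same side was not counted. Its values were 5.47, 7.97 and 7.84 on PMA arrays 1, 2 and 3, against 4.68, 7.72 and 7.73 on control arrays 1, 2 and 3. The number 1 array was the lowest of its group in both groups, and the other 4 arrays lay close together. On PMA array 1 and control array 1 Mrc1 lay below the array medians of 5.71 and 5.67. It lay above their lower quartiles of 4.43 and 4.41. The means were 7.09 ± 1.40 with PMA and 6.71 ± 1.76 in control (SD, n = 3 arrays each). The difference was 0.38 (SE 1.11, 95% interval -2.40 to 3.16), with an adjusted p = 0.999 by limma. Within numbers 1, 2 and 3 it was 0.80, 0.25 and 0.10. With number 1 left out of both groups it was 0.17 and again did not pass. When the fit took the replicate number as a block, the interval was 0.11 to 0.65. The unadjusted p was then 0.0114 and the adjusted p = 0.992 by limma, so the call did not change. In that fit 42 of the 1246 probe sets had an unadjusted p under 0.05 by limma.

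The size of the Mrc1 difference came mostly from the number 1 pair, in which Mrc1 was dimmest. In that pair only 1 other probe set of the 1246, which could not be named, had a larger absolute difference. The PMA difference of Mrc1 in number 1 exceeded that in numbers 2 and 3 by 0.62 (SE 0.14), with an unadjusted p = 0.00235 and an adjusted p = 0.427 by limma. It did not pass. In that comparison 0.0803% of all probe sets were called, and the single one called was the unnamed probe set, at 1.21.

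Mrc2, the collagen receptor, lay above the median of every array, and its 2 group means differed little. It lay above the upper quartile on the 2 number 1 arrays alone. Its values were 10.14, 7.81 and 7.70 on PMA arrays 1, 2 and 3, against 10.28, 7.71 and 7.64 on control arrays 1, 2 and 3. The number 1 array was the highest of its group in both groups, and the groups overlapped. The means were 8.55 ± 1.38 with PMA and 8.54 ± 1.51 in control (SD, n = 3 arrays each). The difference was 0.01 (SE 1.01, 95% interval -2.51 to 2.53), with an adjusted p = 0.999 by limma. The pairs gave -0.14, 0.10 and 0.065, and with the replicate number as a block the interval was -0.16 to 0.17. In the fit without the block the intervals of Mrc1 and Mrc2 reach past a doubling in both directions, and with it neither reaches one.

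**Figure D1:**
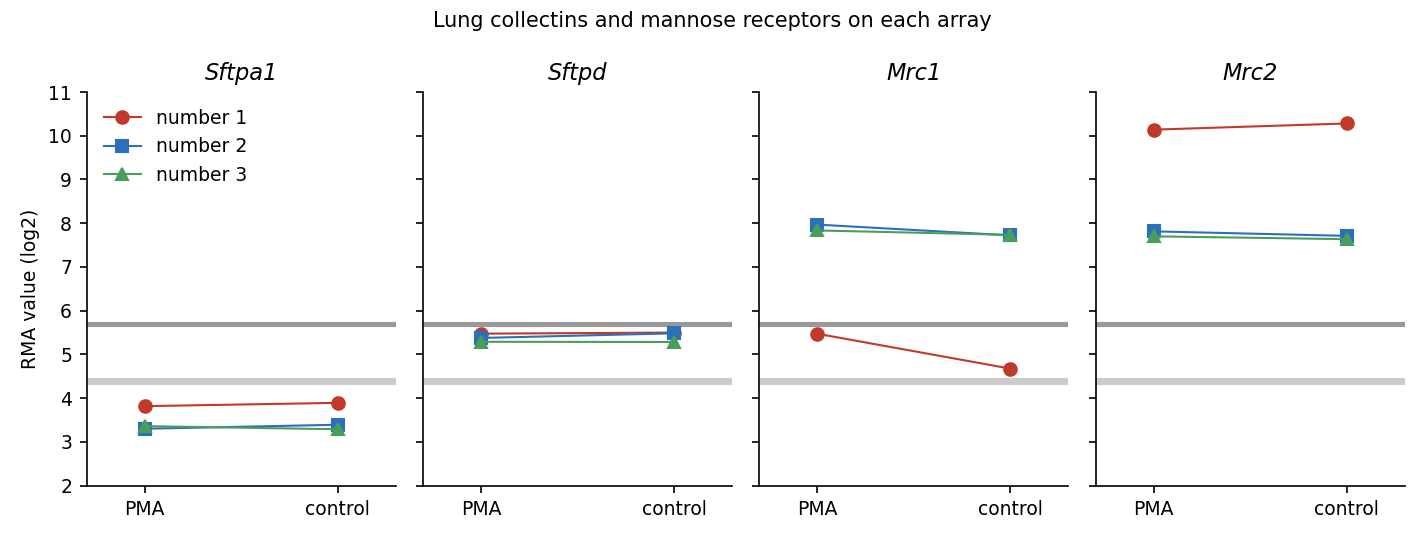
Each panel gives the RMA value (log2) of 1 gene on the 3 PMA arrays (left) and the 3 control arrays (right), and a line joins arrays of the same replicate number. The light and dark grey bands are the ranges over the 6 arrays of the lower quartile and of the median of all probe sets. The number 1 arrays are lowest for Mrc1, at 5.47 and 4.68, and highest for Mrc2, at 10.14 and 10.28.

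For PMA 0 of the 4 genes passed limma's test after Benjamini-Hochberg adjustment, as did 0% of all 1246 probe sets, and 4 probe sets had an unadjusted p under 0.05. The fit with the block also passed 0 of the 4 genes and 0% of all probe sets, and its 42 probe sets at an unadjusted p under 0.05 included Mrc1. The PMA and control groups overlapped for all 4 genes, and they did not overlap for 3.37% of all probe sets. Without number 1 the differences were -0.01 for Sftpa1, -0.05 for Sftpd and 0.08 for Mrc2, beside the 0.17 of Mrc1, and 0 probe sets passed. The sign of each difference turned when certain arrays were left out, for Sftpa1 without PMA 2 (0.06), PMA 3 (0.03) or control 1 (0.15), and for Sftpd without PMA 3 (0.0035). It turned for Mrc1 without PMA 2 (-0.06) or control 1 (-0.64). It turned for Mrc2 without PMA 1 (-0.79), control 2 (-0.41) or control 3 (-0.44), and also with each array centred on its median (-0.0036). The PMA difference did not depend on the number in a way that passed the test for Sftpa1 (-0.07, SE 0.13), Sftpd (0.03, SE 0.16) or Mrc2 (-0.23, SE 0.14), each with an adjusted p of 0.778 or more by limma.

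**Figure D2:**
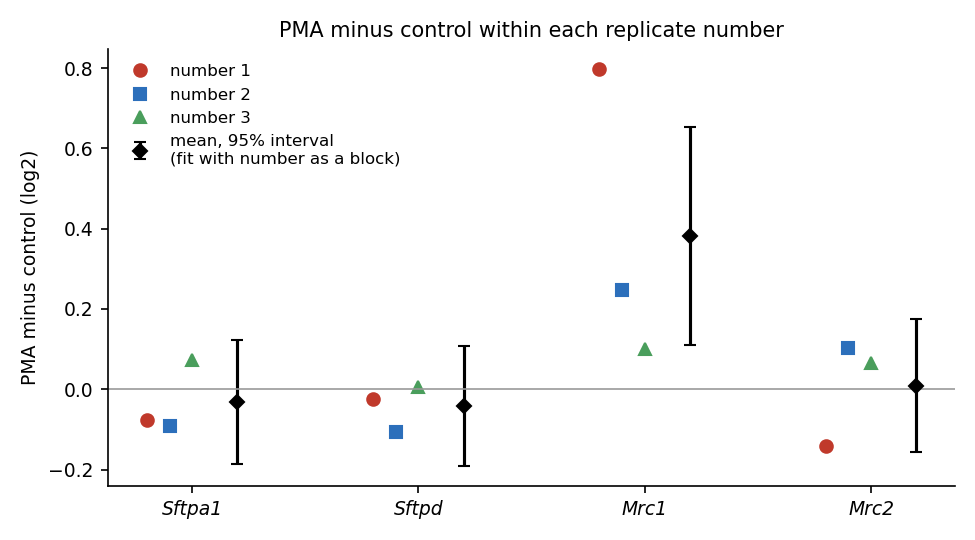
PMA minus control (log2) within replicate numbers 1, 2 and 3 (coloured points), and the mean of the pairs with its 95% interval from the fit with the number as a block (black diamond and bar). All 3 pairs are above 0 for Mrc1, at 0.80, 0.25 and 0.10, and those of the other genes lie on both sides of 0.

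The number 1 arrays differed from the arrays of numbers 2 and 3 in opposite directions for the 2 mannose receptors. This split was known to be large in these data when the genes were chosen, so the values are a description. The mean of Mrc1 was 5.07 in number 1 (2 arrays) and 7.81 ± 0.11 in numbers 2 and 3 (SD, n = 4), a difference of -2.74 log2 units (SE 0.12) and a 6.68-fold lower signal. It was -2.43 among PMA arrays and -3.05 among control arrays. On the number 1 arrays Mrc1 lay below the array median, so the size of the drop rests on low signal. Mrc2 averaged 10.21 in number 1 and 7.72 ± 0.074 in the others (SD, n = 4), a difference of 2.50 (SE 0.078) and a 5.64-fold higher signal. It was 2.38 among PMA arrays and 2.61 among control arrays. For both genes the 2 sets of arrays did not overlap, which was also so for 55.9% of all probe sets. Of the 1246 probe sets, 8 were further down than Mrc1 and 9 further up than Mrc2.

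The log2 difference between the 2 receptors on the same array restates their opposite number 1 differences, which were known when the genes were chosen. Mrc2 minus Mrc1 was 4.67 on PMA array 1 and 5.61 on control array 1. It lay between -0.15 and -0.011 on the 4 arrays of numbers 2 and 3. The mean of number 1 exceeded that of the others by 5.24 log2 units. This follows from the 2.50 of Mrc2 and the -2.74 of Mrc1 and is no further result. Since the 2 probe sets differ in brightness by design, the shift of this quantity between arrays can be read and its level cannot.

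Among the collectins the difference was smaller. Sftpa1 averaged 3.86 in number 1 and 3.34 ± 0.049 in numbers 2 and 3 (SD, n = 4), a difference of 0.52 (SE 0.069) and a 1.43-fold higher signal. Its 2 sets of arrays did not overlap, as in 55.9% of all probe sets. The difference was 0.49 among PMA arrays and 0.55 among control arrays. Sftpd averaged 5.49 in number 1 and 5.36 ± 0.093 in numbers 2 and 3 (SD, n = 4), a difference of 0.13 (SE 0.077, 95% interval -0.043 to 0.30), and the 2 sets overlapped. By limma with PMA as a term and an adjusted p under 0.05, 2 of the 4 genes were higher in number 1, Sftpa1 and Mrc2, and 1 was lower, Mrc1. Of all probe sets 27.5% were higher and 14.1% lower, 41.7% in all. This split was known when the genes were chosen, so the calls of these genes describe it and test nothing. The number stands for 1 pair of arrays against 2, and the labels do not say what it marks. The codes in the labels do differ, with a letter A or B in numbers 2 and 3 and no letter in number 1.

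None of the other members of both families passed for number 1. Of 7 listed collectins 6 were measured. Besides Sftpa1 and Sftpd these were the mannose-binding lectins Mbl1 and Mbl2 of serum, and Colec10 and the scavenger receptor Colec12. Mbl1 lies between Sftpa1 and Sftpd on chromosome 14, with 1 pseudogene beside it. Its difference in number 1 was 0.11, those of Mbl2 and Colec12 were -0.01 and 0.05, and that of Colec10 was 0.16. The 2 other genes of the mannose receptor family are Ly75, an endocytic receptor of dendritic cells, and Pla2r1, a receptor of secreted phospholipase A2. They differed by -0.07 and 0.11.

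With PMA 0 of the 6 collectins passed by limma, with or without the block. By the probe set that stands for each gene all 6 means were lower, with differences from -0.10 to -0.03. Their median difference was -0.06, against 0.0033 over all probe sets, where the median absolute difference was 0.050. The share of all probe sets with a lower mean was not counted. Mbl1 had the largest, -0.10, at 4.69 ± 0.065 with PMA and 4.79 ± 0.071 in control (SD, n = 3 arrays each). The 2 probe sets of Colec12 gave -0.07 and 0.02, and the first is marked as one that can bind several transcripts. Sftpa1, Colec10 and Colec12 lay below the lower quartile on all 6 arrays, and 0 of the 6 genes lay above the median on all of them. In the mannose receptor family Ly75 and Pla2r1 differed by 0.08 and -0.05 with PMA.

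Of 53 other listed C-type lectins, receptors and secreted proteins alike, 37 were measured, and 0 passed for PMA by limma. The PMA mean was the higher one for 23 of them and the lower one for 14, and the median difference was 0.013. The largest were Clec11a, a secreted growth factor of the bone marrow, at -0.15, and Clec4f, the lectin of Kupffer cells, at 0.15. In number 1, 4 were higher and 1 lower, with a median of 0.05, against 0.08 over all probe sets. Of all probe sets 27.5% were higher and 14.1% lower. The counts of this list and of those below stand beside these shares, and no list was tested against them. Chodl, the membrane lectin chondrolectin, was the lowest at -0.95, with values of 4.26 on PMA array 1 and 4.20 on control array 1 against 5.16 to 5.21 on the 4 others. Clec11a was the highest at 0.55. Of the 37 genes, 18 lay below the lower quartile on all 6 arrays.

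**Figure D3:**
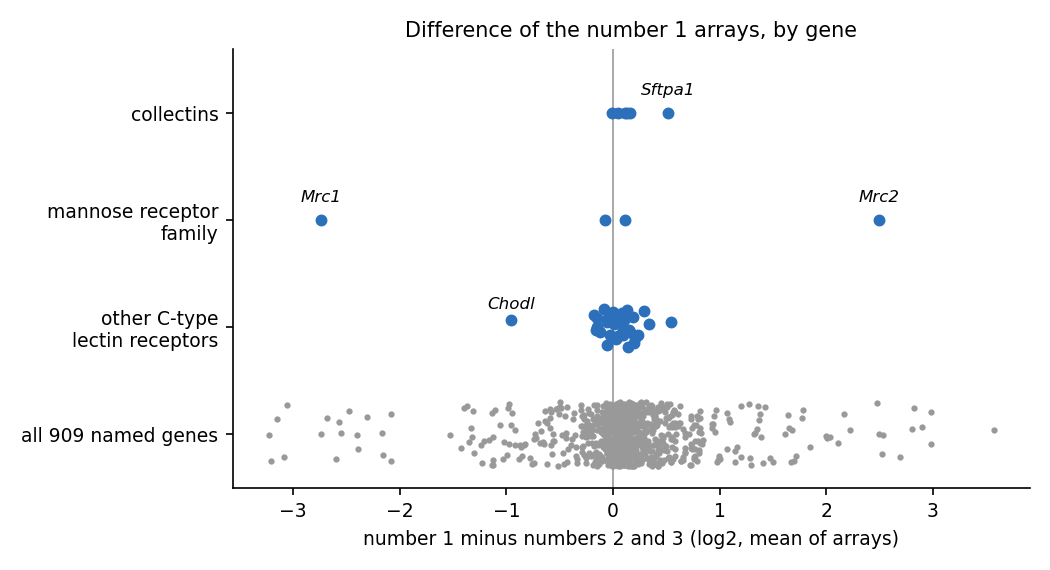
Mean of the 2 number 1 arrays minus the mean of the 4 arrays of numbers 2 and 3 (log2), 1 point per gene, for 3 lists of lectins and for all 909 named genes; points are spread vertically for legibility. In the 3 lists Mrc1 lies at -2.74 and Mrc2 at 2.50, and the other genes of these lists lie between -0.95 and 0.55. Among all named genes some lie further out on both sides. The list labelled as other C-type lectin receptors also holds secreted proteins such as Clec11a.

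Genes that make or read the same sugars were measured too. Among lectins and chaperones of the secretory pathway, 3 of 12 were measured, and 2 were higher in number 1, Igf2r, the mannose 6-phosphate receptor of the trans-Golgi, by 0.35 and the chaperone calnexin (Canx) by 0.34. The third, Lman2l, differed by -0.12 with PMA, where Igf2r differed by 0.14. Of 14 genes that trim mannose or branch N-glycans 10 were measured, and 2 were higher in number 1, Man2a2 by 0.48 and Mgat3 by 0.44. Man2a2, a Golgi mannosidase, and Mgat2, which adds the second branch, led that list for PMA at -0.13 and 0.08. All 4 genes for the 4-sulfated N-acetylgalactosamine that Mrc1 can bind were measured. B4galnt4 and Chst8 were higher in number 1, by 0.79 and 0.24, and B4galnt3 and Chst8 led for PMA at -0.14 and 0.10. In these 3 lists 0 genes passed for PMA and 0 were lower in number 1. Of all probe sets 27.5% were higher in number 1 and 14.1% lower.

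Mrc1 is also a marker of macrophages and of some endothelial cells, and Mrc2 of fibroblasts, so these lists are given beside them. Of 20 macrophage and leukocyte markers 10 were measured. Apart from Mrc1, 1 of 9 was higher in number 1, Cd74 by 0.58, and 0 were lower. Of all probe sets 41.7% differed in number 1 in either direction. The mean of those 9 was 4.90 to 4.95 in number 1 and 4.80 to 4.91 in numbers 2 and 3. With PMA, Cd74 differed by -0.20. Of 12 endothelial markers 5 were measured, and 3 were lower in number 1, Pecam1 at -1.37, Vcam1 at -1.31 and Sele at -1.13, and Selp was higher at 0.39. Their mean was 5.87 to 5.91 in number 1 and 6.49 to 6.59 in the others. With PMA, Vcam1 differed by 0.13 and Icam2 by 0.07.

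Of 10 fibroblast markers 5 were measured, and they did not move one way with Mrc2. Dcn, the proteoglycan decorin, was lower in number 1, at -2.31. Vcan, the proteoglycan versican, was higher at 1.15, as was Pdgfrb, a growth factor receptor, at 0.78. With PMA Vcan and Pdgfrb differed by 0.20 and -0.22. The mean of the 5 was 5.36 to 5.49 in number 1 and 5.33 to 5.63 in the others. Of 7 airway secretory and ciliated markers 2 were measured, and both were lower in number 1, Muc5ac at -2.59 and Muc5b at -1.13. With PMA they differed by 0.18 and 0.05. Beside these counts and those of the fibroblast markers, 27.5% of all probe sets were higher in number 1 and 14.1% lower. Muc1, the epithelial marker, was higher by 0.33 and differed by -0.03 with PMA. The part of other cell types in the Mrc1 and Mrc2 values was not tested.

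Of 20 genes that respond to phorbol ester in other cells 8 were measured, and 0 passed for PMA by limma. Cxcl1 and Il1b had the largest differences, 0.21 and 0.20. In number 1, 4 of the 8 were lower, Cxcl2 at -3.06 and Areg at -1.31 the most, and 1 was higher. Of all probe sets 14.1% were lower and 27.5% higher.

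The genes whose pattern over the 6 arrays was most like that of each gene were taken by the root mean square distance between values centred on each gene's own mean, over 908 other genes. Nearest to Mrc1 were Ahsg, which encodes the plasma protein fetuin-A, at 0.18 log2 units, the gel-forming mucin Muc5ac at 0.20 and the chemokine Cxcl2 at 0.24. Nearest to Mrc2 were Slc35f3 at 0.082, the Wnt ligand Wnt6 at 0.11 and Col18a1, a basement membrane collagen, at 0.14. The patterns of all 6 were set by the number 1 arrays, in which they differed by -2.68, -2.59, -3.06, 2.48, 2.53 and 2.52 in the order named. Nearest to Sftpa1 were B4galt2 at 0.023, Pdgfb at 0.028 and Flt3l at 0.032, and nearest to Sftpd were Csf1r at 0.025, Pla2r1 at 0.033 and Fgf10 at 0.036. For Sftpd the range itself was 0.22, so likeness there is likeness of small values. The probe sets of Ahsg, Muc5ac and Fgf10 are marked as able to bind several transcripts, as are those of Colec10, Chst8, B4galnt4, Cd74, Icam2 and Dcn.

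**Figure D4:**
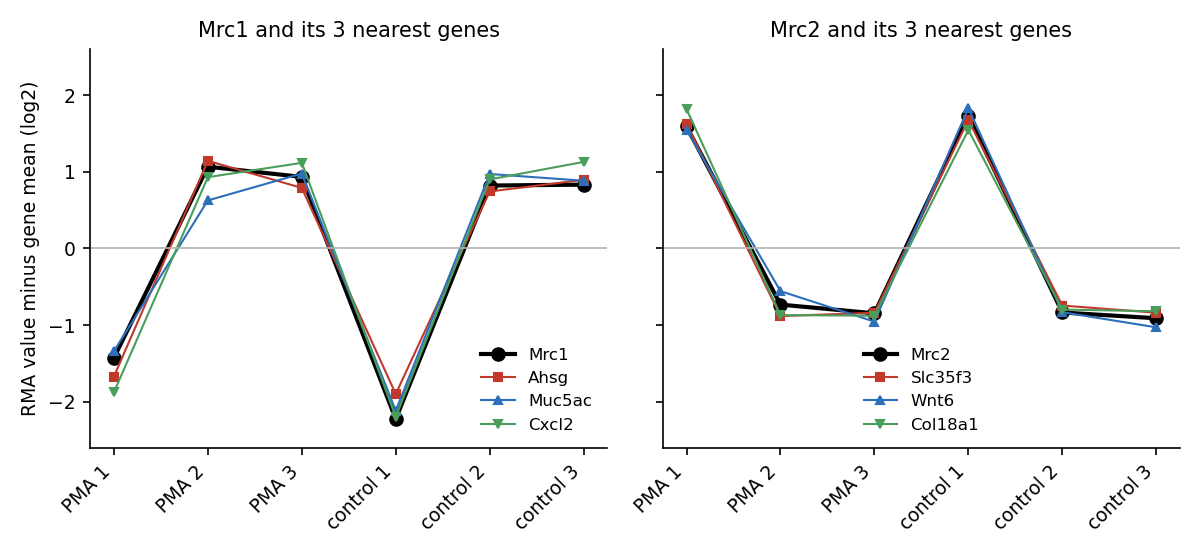
RMA value minus the gene's own mean over the 6 arrays (log2) for Mrc1 (left, black) and Mrc2 (right, black) with the 3 genes nearest to each in colour, on PMA arrays 1 to 3 and then control arrays 1 to 3. Every line on the left dips on the number 1 arrays and every line on the right peaks there.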

How the data were processed

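Total RNA of the 6 MLE-15 samples was labelled from 0.5 µg and hybridised to Affymetrix arrays, per the labels' protocols. The authors deposited log2 values made with RMA, per the submitters' processing notes. RMA subtracts background, gives all arrays 1 distribution by quantile normalization and summarises each probe set. The deposited values still differed in distribution between arrays, with medians of 5.71 on PMA array 1 and 5.64 on PMA array 3. Neither its version nor the array's name nor a filter is stated. Quantile normalization can hide part or all of a shift of all transcripts one way. The median number 1 difference over all probe sets was 0.079 as deposited and 0.013 with renewed quantile normalization. Precision is limited by the number of arrays.

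Of 1246 probe sets, 963 were named through the RefSeq accession in their name (gene table of GRCm38.p6), and 283 stayed unnamed. Where a gene had several, the one of highest mean stood for it. All probe sets were fitted with limma 3.58.1 in R 4.3.3 (lmFit, eBayes), with Benjamini-Hochberg adjustment over all of them and a threshold of 0.05. SE is limma's moderated standard error. Separate fits gave the PMA difference, the number 1 difference with PMA as a term, and their interaction. The procedure was tested on simulated data.

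The groups share replicate numbers. Deviations from the group means correlated at 0.956, 0.815 and 0.912 across probe sets between arrays of the same number. All were over the 0.1 set for treating numbers as pairs. The group means include number 1, so its shift enters the deviations of numbers 2 and 3, which cannot show that these are pairs. Number 2 minus number 3, which leaves number 1 out, correlated at 0.041 between the groups. Pairs of numbers 2 and 3 therefore rest on the labels. The genes and lists were chosen with earlier results of these data known. In each list the 2 genes of largest PMA difference and the 2 of largest number 1 difference are named, with every measured collectin and mannose receptor and the 3 nearest genes of each. Others are named as examples, chosen after their values were seen.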

Additional observations from a re-analysis of the deposited data

How the results depend on the processing

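For PMA, 0 probe sets were called in every alternative tried: centring, renewed quantile normalization, the filter on dim probe sets, averaged probe sets, an intensity trend, the replicate block, a batch term for number 1, number 1 left out, and each array left out. The direction of the 4 small PMA differences did change. Mrc2 was -0.0036 with each array centred on its median. Without 1 array the numbers are no longer balanced, and the difference ran from -0.194 to 0.152 for Sftpa1, -0.111 to 0.0035 for Sftpd, -0.636 (without control 1) to 1.19 (without PMA 1) for Mrc1 and -0.785 (without PMA 1) to 0.878 (without control 1) for Mrc2. With the replicate block Mrc1 stayed at 0.38 and its adjusted p was 0.992 by limma. The block changed no call. The number 1 differences of all 4 genes kept their direction in each alternative run. Mrc1 lay between -3.05 and -2.43 and Mrc2 between 2.38 and 2.61. These differences were known when the genes were chosen, and each run reused the same arrays, so this is no further support. Sftpa1 had no value under the filter on dim probe sets, which removes it. Over all probe sets 403 to 543 were called with 1 array left out. Renewed quantile normalization turned the split of number 1 calls, 343 higher and 176 lower, into 278 and 232. The dependence of the PMA difference on the number called 0 probe sets with renewed quantile normalization and 0 with an intensity trend, and for Sftpd it was -0.021 with centred arrays. The cause of these changes was not tested. Signal over background is unknown, which limits what can be read from Sftpa1 most, the dimmest of the 4.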
